A study of Homo sapiens with 12 samples.

Results

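The chemokines described here are CXCL1, CXCL2, CXCL3, CXCL5, CXCL6, CXCL8, CXCL10, CXCL16, CCL2 and CCL20, 8 of the CXC class and 2 of the CC class. Each was taken as the probe sets that carry its symbol in the platform annotation, which gave 1 probe set for each of the 10 genes among 21448 probe sets on the array. The study measured RNA of 2 human lung adenocarcinoma lines, H1975 and PC-9, both labelled as carrying a mutation of the epidermal growth factor receptor (EGFR), the target of the inhibitor osimertinib. In H1975 SK-216 and PC-9 SK-216, osimertinib-tolerant cells were given 100 µM SK-216, a compound named here by its code, and the cells alive after 48 h were collected. H1975 tolerant and PC-9 tolerant are cells that had survived 0.5 µM osimertinib for 1 week, counted as tolerant on day 8. All 4 groups therefore had osimertinib, and each group has 3 arrays. No group without osimertinib is among the samples used here. The source names of the SK-216 samples call the starting cells naive where their titles and descriptions call them tolerant, and nothing says whether osimertinib was kept during SK-216. SK-216 and the added 48 h cannot be told apart, and each line stands for itself alone. Bulk RNA of surviving cells also cannot tell fewer expressing cells from less RNA per cell.

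Chemokines are small secreted proteins that draw white blood cells along a gradient through receptors coupled to G proteins. CXC chemokines with the amino acids ELR ahead of their first cysteines, here CXCL1, CXCL2, CXCL3, CXCL5, CXCL6 and CXCL8, bind CXCR2, and some also CXCR1, and attract neutrophils. CXCL10 is induced by interferon and attracts T cells through CXCR3, CXCL16 is made as a membrane protein that ADAM10 can release and binds CXCR6, CCL2 attracts monocytes through CCR2, and CCL20 binds CCR6. Epithelial and lung cancer cells can make them, and NF-kB is a well-known activator of their transcription.

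The authors deposited log2 signals, so a difference of 1 is a doubling of signal, and levels are compared only within a probe set. Arrays of the same group correlated at r between 0.993 and 0.995 over all probe sets, and no array stood apart from its group. Olfactory receptor genes, which are not thought to be expressed in these cells, gave 348 probe sets with single values centred at 3.61 (median) and 95% of them at or under 5.14. That 95th percentile is used below as a mark of the level of unexpressed genes. All 6 epithelial markers checked had group means above it in all 4 groups, while none of the lung lineage markers NKX2-1, NAPSA and SFTPB was above it in either SK-216 group, and 1 of them, SFTPB at a mean of 5.19, was in PC-9 tolerant cells. Of 5 leukocyte markers, PTPRC, the defining one, had group means of 3.78 to 4.11 and MS4A1 was also below the mark in all groups. CD68, which other cells can also express, had group means of 11.60 to 12.26, CD14 of 5.79 to 6.75 and CD3E of 5.13 to 5.54. CXCL1, CXCL2 and CXCL3 are close paralogs, as are CXCL5 and CXCL6, and shared signal between their probe sets was not tested.

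The stretch before the start of a gene is shown for 6 of the chemokines so that called and uncalled genes can be read side by side: CXCL6, CXCL5, CXCL1 and CXCL10 fell in H1975, CXCL8 rose in PC-9, and CXCL3 passed the test in neither line. Each sequence is the 250 bases before the transcription start in the RefSeq promoter table of GRCh38.p14, read 5′ to 3′ on the strand of the gene, and capitals mark matches to the motifs named after them. They lie at chr4:73836428-73836677 on the plus strand for CXCL6, chr4:73998678-73998927 on the minus strand for CXCL5, chr4:73869143-73869392 on the plus strand for CXCL1, chr4:74038690-74038939 on the minus strand for CXCL3, chr4:73740319-73740568 on the plus strand for CXCL8 and chr4:76023498-76023747 on the minus strand for CXCL10.
CXCL6: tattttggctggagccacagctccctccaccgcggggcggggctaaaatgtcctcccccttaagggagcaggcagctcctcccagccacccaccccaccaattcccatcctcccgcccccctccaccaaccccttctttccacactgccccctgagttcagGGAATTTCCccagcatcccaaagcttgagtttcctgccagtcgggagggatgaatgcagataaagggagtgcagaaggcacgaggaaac
CXCL5: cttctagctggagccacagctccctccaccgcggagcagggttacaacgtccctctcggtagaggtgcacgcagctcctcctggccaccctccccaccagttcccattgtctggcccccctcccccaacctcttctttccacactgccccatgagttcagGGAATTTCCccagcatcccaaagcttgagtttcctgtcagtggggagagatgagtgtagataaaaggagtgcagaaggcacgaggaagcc
CXCL1: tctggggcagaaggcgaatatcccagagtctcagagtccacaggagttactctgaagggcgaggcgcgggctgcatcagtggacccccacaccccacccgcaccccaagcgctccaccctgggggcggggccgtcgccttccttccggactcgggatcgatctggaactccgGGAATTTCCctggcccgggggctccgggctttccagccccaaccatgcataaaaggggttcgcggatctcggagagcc
CXCL3: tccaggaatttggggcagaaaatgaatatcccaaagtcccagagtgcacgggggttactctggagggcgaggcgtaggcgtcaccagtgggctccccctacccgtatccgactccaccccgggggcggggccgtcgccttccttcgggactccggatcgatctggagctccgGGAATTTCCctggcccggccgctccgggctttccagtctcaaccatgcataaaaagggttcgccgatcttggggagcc
CXCL8: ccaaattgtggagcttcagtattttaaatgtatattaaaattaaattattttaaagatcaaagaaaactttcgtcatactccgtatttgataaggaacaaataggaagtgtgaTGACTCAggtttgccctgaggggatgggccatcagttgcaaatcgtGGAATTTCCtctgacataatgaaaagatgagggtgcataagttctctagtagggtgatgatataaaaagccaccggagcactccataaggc
CXCL10: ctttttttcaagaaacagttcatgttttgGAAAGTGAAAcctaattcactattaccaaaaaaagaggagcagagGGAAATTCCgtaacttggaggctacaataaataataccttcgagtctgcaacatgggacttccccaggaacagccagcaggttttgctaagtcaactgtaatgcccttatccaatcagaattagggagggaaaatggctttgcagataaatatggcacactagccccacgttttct
The table matched 8 of the 10 symbols, the others being CXCL16 and CCL2. Windows of 300 bases, 250 before and 50 after the start, were searched on both strands for 3 motifs. They were GGAANTTCC, an NF-kB-type motif whose reverse complement is the same pattern, TGACTCA, an AP-1-type motif, and an interferon-response-type motif, GAAA repeated after NN. GGAANTTCC was present in 7 of the 8 windows, those of CXCL1, CXCL2, CXCL3, CXCL5, CXCL6, CXCL8 and CXCL10, and in 339 of all 35116 windows (0.965%). Its letters were chosen with the known sites of such promoters in mind, so the 7 matches are a description. The match began 78 bases before the start in CXCL1 and CXCL3, 77 in CXCL2, 90 in CXCL5, 89 in CXCL6, 91 in CXCL8 and 176 in CXCL10. TGACTCA was found in the window of CXCL8 alone, 137 bases before the start, against 4.95% of all windows, and the interferon-response-type motif in that of CXCL10 alone, 221 bases before the start, against 3.57%. No match overlapped another, and the CCL20 window held none of the 3 patterns. In a global alignment of the 250 bases, CXCL5 and CXCL6 were 85.3% identical and CXCL1 and CXCL3 81.4% identical, while CXCL8 and CXCL1 were 42.8% identical.

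In H1975 cells, 5 of the 10 chemokines fell after SK-216 and 0 rose, with an adjusted p below 0.05 in a limma fit of all probe sets. They were the neutrophil attractants CXCL6, CXCL1 and CXCL5, the interferon-induced CXCL10 and the monocyte attractant CCL2. Over all probe sets 3.80% passed in either direction, 1.44% rose and 2.35% fell. The median change of the 10 chemokines was -0.83, against 0.01 over all probe sets. The chemokines were chosen with earlier results of these data known, so these shares describe the set. Without adjustment, 7 of the 10 had p below 0.05 in H1975, all with lower values, against 14.2% of all probe sets. Marker genes moved in the same comparison: of 6 epithelial markers EPCAM and KRT7 rose and CDH1 and KRT8 fell, and of 4 fibroblast markers COL1A1 fell (-0.96, adjusted p = 0.00693). CDH1 changed by -1.55 (adjusted p = 4.51e-08) and EPCAM by 0.77 (adjusted p = 0.00044), and both calls held in all 12 leave-one-out fits. The calls of KRT7, KRT8 and COL1A1 ended in 4, 5 and 2 of 12 leave-one-out fits (adjusted p up to 0.166, 0.121 and 0.0640). The summed log2 signal of the 5 leukocyte markers, 3 of them above 5.14 in both H1975 groups, was 30.61 to 31.21 in H1975 SK-216 cells and 31.16 to 31.48 in H1975 tolerant cells, and that of the fibroblast markers was 26.05 to 26.56 in H1975 SK-216 cells and 27.64 to 28.49 in H1975 tolerant cells. Of the leukocyte markers, CD14 changed by -0.74 in H1975 without passing (adjusted p = 0.0508). PTPRC, CD3E and CD68 changed by 0.18, 0.26 and 0.03 and MS4A1 by -0.11, none past the test. The part of these markers in the chemokine changes was not tested.

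CXCL6 (probe set TC0400012814.hg.1), also called granulocyte chemotactic protein 2, had log2 signals of 7.81, 7.87 and 7.51 in H1975 SK-216 cells, against 9.37, 9.53 and 10.14 in H1975 tolerant cells. All 3 treated arrays lay below all 3 tolerant ones. The change was -1.95 ± 0.20 (log2 fold change ± standard error), a signal 25.9% of the tolerant level (adjusted p = 1.19e-06).

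CXCL1 (TC0400007840.hg.1), or GRO alpha, had 9.84, 10.24 and 9.90 in H1975 SK-216 cells, against 11.29, 10.94 and 11.59 in H1975 tolerant cells. The groups did not overlap, and the change was -1.28 ± 0.20, a signal 41.2% of the tolerant level (adjusted p = 0.000308). CXCL5 (TC0400011014.hg.1), whose protein is also known from epithelial cells, had 11.63, 11.72 and 11.88 with SK-216, against 12.42, 12.74 and 12.60 in tolerant cells. The change was -0.84 ± 0.18 (adjusted p = 0.00526), and again the arrays did not overlap.

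The remaining ELR chemokines did not pass in H1975. CXCL2, or GRO beta, had 9.70, 9.76 and 8.92 in H1975 SK-216 cells, against 10.02, 10.57 and 10.24 in tolerant cells, a change of -0.82 ± 0.24 (adjusted p = 0.0533). Its groups did not overlap either, and the third treated array was the lowest. Its adjusted p lay between 0.0328 and 0.311 when 1 of the 12 arrays was left out at a time. CXCL3, or GRO gamma, had 7.65, 8.43 and 7.71 with SK-216, against 7.58, 7.84 and 7.35 in tolerant cells. These groups overlapped, and the 95% confidence interval of the change, -0.18 to 0.86, includes 0 (adjusted p = 0.614). CXCL8, interleukin 8, had 11.70, 11.55 and 11.28 with SK-216, against 11.17, 11.30 and 11.50 in tolerant cells, with an interval from -0.08 to 0.45 (adjusted p = 0.573). Whether the changes of these genes differ from one another was not tested.

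CXCL10 (TC0400011053.hg.1) had 3.91, 4.34 and 4.48 in H1975 SK-216 cells, against 6.09, 6.07 and 5.36 in H1975 tolerant cells. All 3 treated arrays lay below 5.14, the mark for unexpressed genes, and all 3 tolerant arrays lay above it. With the treated arrays set at 5.14, CXCL10 was at least 1.62-fold lower in H1975 SK-216 cells. The fitted change of the measured signals was -1.60 ± 0.23 (adjusted p = 0.000102), and its size has no exact meaning at that level.

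CCL2 (TC1700007557.hg.1), monocyte chemoattractant protein 1, had 12.71, 12.96 and 12.59 in H1975 SK-216 cells, against 13.64, 13.73 and 13.93 in H1975 tolerant cells. Every treated array was below every tolerant one, with a change of -1.01 ± 0.17, a signal 49.5% of the tolerant level (adjusted p = 0.000635). CCL20, or macrophage inflammatory protein 3 alpha, had 8.25, 8.48 and 7.49 with SK-216, against 8.52, 8.67 and 9.23 in tolerant cells. Its arrays did not overlap, but its change of -0.73 ± 0.25 did not pass (adjusted p = 0.114). CXCL16 had 8.22, 8.53 and 8.40 with SK-216, against 8.13, 8.17 and 8.32 in tolerant cells, and its groups overlapped (change 0.18 ± 0.11, adjusted p = 0.533).

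**Figure D1:**
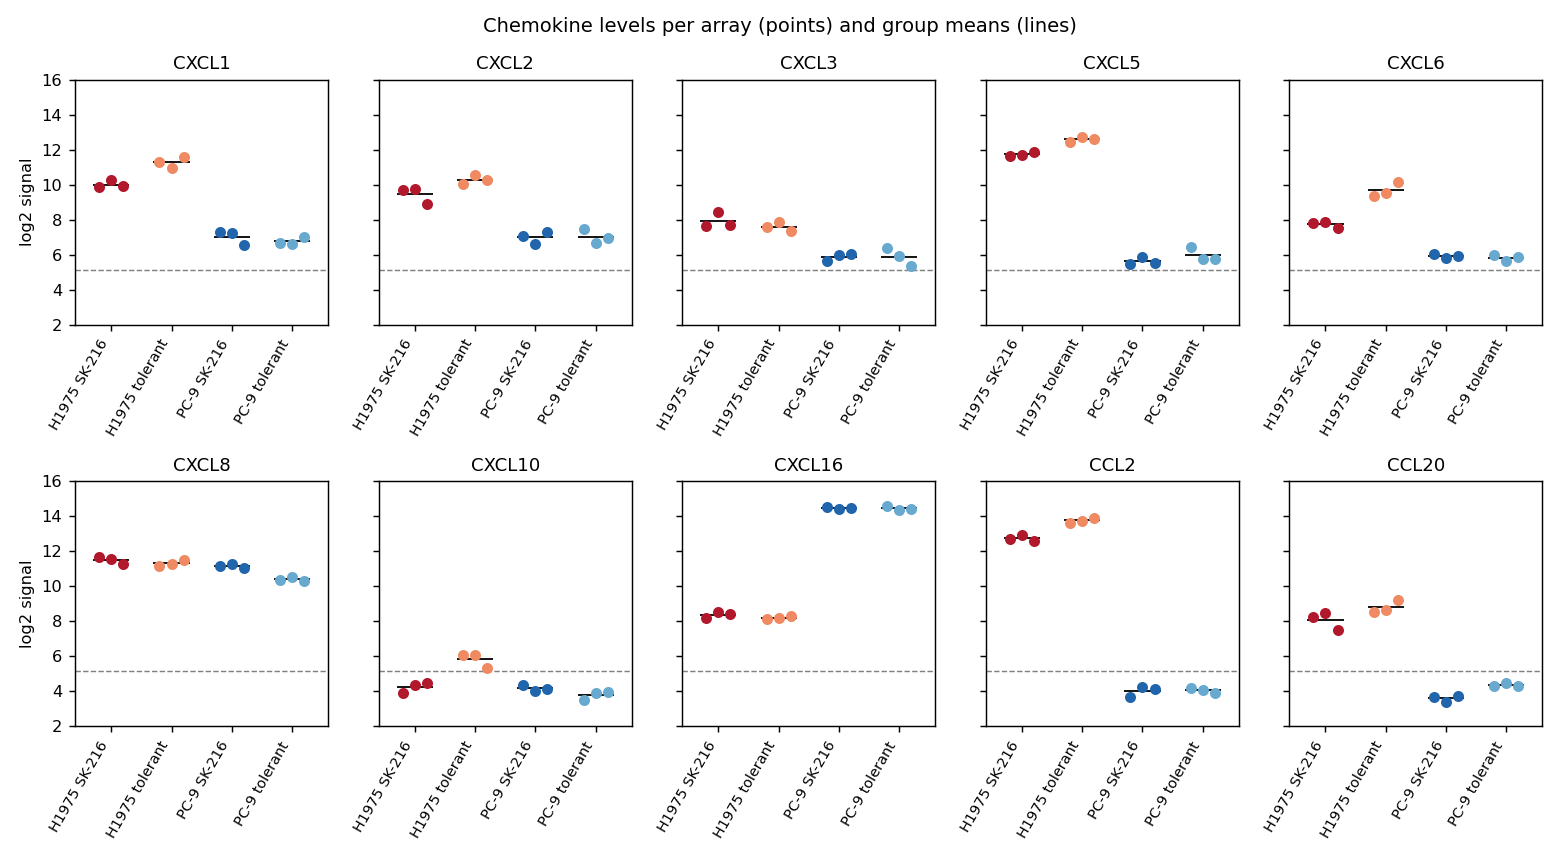
Log2 signal (vertical axis) of each chemokine in the 4 groups (horizontal axis), with 1 point per array and a line at the mean of 3 arrays; the dashed line is 5.14, the 95th percentile of olfactory receptor probe sets. CCL2 lies between 12.59 and 13.93 in H1975 and under the dashed line in PC-9, while CXCL16 lies near 14.5 in PC-9 and between 8.13 and 8.53 in H1975.

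In 7 of the 10 chemokines the H1975 SK-216 arrays lay wholly below the tolerant arrays, and in 0 wholly above, against 9.56% of all probe sets wholly below, 8.95% wholly above and 18.5% either way. The 7 are the 5 that fell together with CXCL2 and CCL20. The 5 calls held in each of the 12 leave-one-out fits, where the highest adjusted p was 2.87e-05 for CXCL6, 0.00499 for CXCL1, 0.0431 for CXCL5, 0.00154 for CXCL10 and 0.0105 for CCL2. Nothing in the labels says that the arrays of a group came from separate cultures, so the p-values cover array-to-array spread alone, some of it possibly technical.

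In PC-9 cells, CXCL8 rose after SK-216 and no other of the 10 chemokines passed, while 2 of the 10, CXCL8 and CCL20, had an unadjusted p below 0.05, against 10.9% of all probe sets. Over all probe sets 0.443% passed in either direction, 0.373% rose and 0.0699% fell. CXCL8 (TC0400007836.hg.1) had 11.17, 11.27 and 11.03 in PC-9 SK-216 cells, against 10.39, 10.52 and 10.29 in PC-9 tolerant cells. The groups stood apart by more than the spread within either, with a change of 0.76 ± 0.13, a signal 169% of the tolerant level (adjusted p = 0.00378). Without PC-9 SK-216 array 2 the change was 0.70 (adjusted p = 0.0545), and without a trend of the variance on level the adjusted p was 0.110, so the call ended in both.

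The other ELR chemokines gave small, uncalled values in PC-9. CXCL6 had 6.01, 5.82 and 5.95 in PC-9 SK-216 cells, against 5.98, 5.65 and 5.87 in PC-9 tolerant cells (change 0.09, 95% confidence interval -0.33 to 0.52). CXCL1 had 7.29, 7.26 and 6.53 with SK-216, against 6.67, 6.59 and 7.03 in tolerant cells (0.26, -0.16 to 0.69). The arrays of both genes overlapped between the groups. CXCL5 had 5.48, 5.87 and 5.54 with SK-216, against 6.42, 5.76 and 5.75 in tolerant cells, where the first tolerant array stood above the rest (-0.35, -0.71 to 0.020). CXCL2 had 7.08, 6.59 and 7.30 with SK-216, against 7.48, 6.66 and 6.97 in tolerant cells (-0.05, -0.53 to 0.44). CXCL3 had 5.64, 5.99 and 6.05 with SK-216, against 6.36, 5.91 and 5.36 in tolerant cells (0.02, -0.50 to 0.53). The groups overlapped for these last 3 genes as well. CXCL6, CXCL3 and CXCL5 had PC-9 tolerant means of 5.83, 5.88 and 5.98, close to the mark of 5.14, so a large fall of these could hardly have been measured there.

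CXCL10, CCL2 and CCL20 lay below 5.14 on all 6 PC-9 arrays. CCL20 had 3.65, 3.39 and 3.76 in PC-9 SK-216 cells, against 4.33, 4.49 and 4.33 in PC-9 tolerant cells. Its groups did not overlap, but the change of -0.78 ± 0.25 did not pass (adjusted p = 0.199), and both groups are at the level of unexpressed genes. CXCL10 had 4.34, 4.00 and 4.15 with SK-216, against 3.50, 3.91 and 3.97 in tolerant cells (0.37 ± 0.23, adjusted p = 0.600). CCL2 had 3.65, 4.27 and 4.13 with SK-216, against 4.17, 4.08 and 3.93 in tolerant cells, and these arrays overlapped. CXCL16 had 14.55, 14.40 and 14.49 with SK-216, against 14.58, 14.39 and 14.44 in tolerant cells, with an interval of the change from -0.22 to 0.24. In 3 of the 10 chemokines, CXCL8, CXCL10 and CCL20, the PC-9 groups did not overlap, 2 higher and 1 lower with SK-216, against 15.0% of all probe sets (8.21% higher and 6.80% lower).

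**Figure D2:**
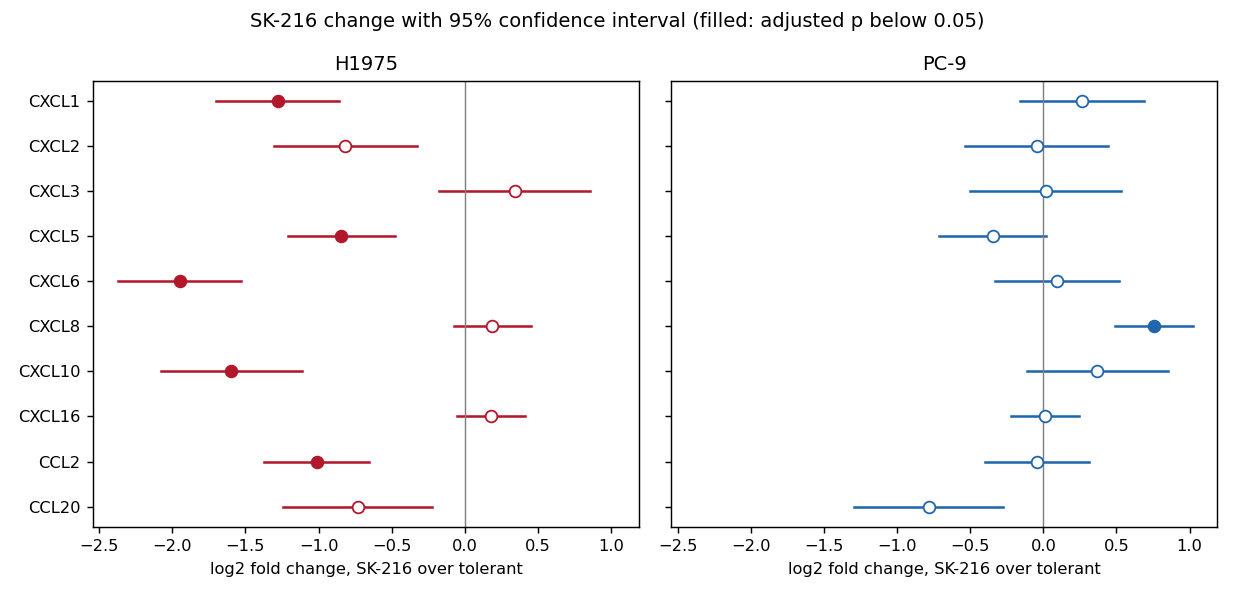
Log2 fold change of SK-216 over tolerant cells (horizontal axis) for each chemokine (vertical axis) in H1975 (left) and PC-9 (right); points are estimates, bars are 95% confidence intervals and filled points passed at an adjusted p below 0.05. CXCL6 lies at -1.95 in H1975, the CXCL10 value there rests on treated arrays below 5.14, and CXCL8 at 0.76 is the only filled point in PC-9.

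The difference between the lines was tested as an interaction in the same fit, as the SK-216 change in PC-9 minus that in H1975. It passed for 4 of the 10 chemokines, all above 0, against 1.42% of all probe sets (1.09% above 0). CXCL6 had a difference of 2.04 ± 0.29 (adjusted p = 0.00021), CXCL10 of 1.97 ± 0.33 (adjusted p = 0.00149), CXCL1 of 1.54 ± 0.29 (adjusted p = 0.00445) and CCL2 of 0.97 ± 0.24 (adjusted p = 0.0451). All 4 had fallen in H1975. CXCL10 and CCL2 were at the level of unexpressed genes in PC-9, CXCL10 also in H1975 SK-216 cells, so the sizes of their differences are not exact, and the part of that low level in the difference was not tested. The call of CCL2 ended in 9 of 12 leave-one-out fits (up to an adjusted p of 0.148). Without a trend of the variance on level the calls of CXCL1 (adjusted p = 0.0554) and CCL2 (adjusted p = 0.114) ended and those of CXCL6 and CXCL10 remained. CXCL8, called in PC-9 and not in H1975, had a difference of 0.57 ± 0.18 that did not pass (adjusted p = 0.128), and CXCL5, called in H1975 and not in PC-9, one of 0.50 ± 0.25 (adjusted p = 0.423).

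The levels of the chemokines were also set side by side between the lines. In tolerant cells all 10 chemokines differed between PC-9 and H1975, 9 lower and 1 higher in PC-9, against 44.0% of all probe sets called, 22.7% lower and 21.3% higher. CCL2 averaged 4.06 ± 0.12 in PC-9 tolerant cells and 13.77 ± 0.15 in H1975 tolerant cells (mean log2 signal ± SD, n = 3 each), with PC-9 below the mark of 5.14. With PC-9 set at that mark, CCL2 was at least 395-fold lower in PC-9 tolerant cells (adjusted p of the fit = 7.79e-23). CXCL5 averaged 5.98 ± 0.38 in PC-9 and 12.59 ± 0.16 in H1975, a difference of -6.61 ± 0.18. CXCL16 ran the other way, with 14.47 ± 0.10 in PC-9 and 8.21 ± 0.10 in H1975, a difference of 6.26 ± 0.11 (adjusted p = 7.79e-23). CCL20 was at least 12.7-fold and CXCL10 at least 1.62-fold lower in PC-9, by the same bound. The differences of CXCL1, CXCL6, CXCL2 and CXCL3 were -4.51, -3.85, -3.24 and -1.71. CXCL8 differed by -0.92 ± 0.13 (adjusted p = 1.27e-06).

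After SK-216, 9 of the 10 still differed between PC-9 SK-216 and H1975 SK-216 cells, 8 lower and 1 higher in PC-9, against 43.9% of all probe sets, 22.2% lower and 21.6% higher. CXCL10, which averaged 4.16 ± 0.17 in PC-9 SK-216 cells and 4.24 ± 0.30 in H1975 SK-216 cells, did not (difference -0.08, 95% confidence interval -0.56 to 0.40). CXCL8 was lower in PC-9 by the test, at -0.35 ± 0.13 (adjusted p = 0.0266), a call that ended in 4 of 12 leave-one-out fits (up to an adjusted p of 0.154) and without a variance trend (adjusted p = 0.0664).

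Ordered by mean level, CXCL1, CXCL5, CXCL6 and CCL2 were highest in H1975 tolerant cells, then in H1975 SK-216 cells, and lowest in both PC-9 groups, which did not differ from each other beyond the test. CXCL2, CXCL3 and CCL20 had both H1975 groups above both PC-9 groups, with no call within a line. CXCL10 was highest in H1975 tolerant cells, and no neighbours among the other groups differed beyond the test. CXCL16 was highest in both PC-9 groups and lower in both H1975 groups, again with no call within a line. CXCL8 had H1975 SK-216, H1975 tolerant and PC-9 SK-216 in this order, and PC-9 tolerant cells as the lowest. Neighbours among the first 3 did not differ beyond the test or the overlap of their arrays. The outer groups of these, H1975 SK-216 and PC-9 SK-216, did differ by the limma test (adjusted p = 0.0266), a call that ended in 4 of 12 leave-one-out fits.

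Of the 10 chemokine genes 7 lie on chromosome 4, CXCL16 and CCL2 on chromosome 17 and CCL20 on chromosome 2, per the RefSeq gene table. The 6 ELR genes lie in 1 stretch of 9 protein-coding genes, in the order CXCL8, CXCL6, PF4V1, CXCL1, PF4, PPBP, CXCL5, CXCL3, CXCL2, and all 9 were measured. The values of neighbouring genes are given as descriptions, as differences between genes were not tested. CXCL8, at 0.19 in H1975, is next to CXCL6 at -1.95, and CXCL3 at 0.34 lies between CXCL5 at -0.84 and CXCL2 at -0.82. Of these, the changes of CXCL8, CXCL3 and CXCL2 did not pass. The other 3 genes in the stretch, PF4V1, PF4 and PPBP, which encode platelet chemokines, had group means between 4.75 and 5.87 and changes in H1975 of -0.02, 0.14 and -0.19, none past the test. CXCL1 and CXCL3, whose printed sequences are 81.4% identical with the same motif at the same distance, had changes of -1.28 and 0.34 in H1975. That of CXCL3 did not pass, and the part of the motif was not tested.

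**Figure D3:**
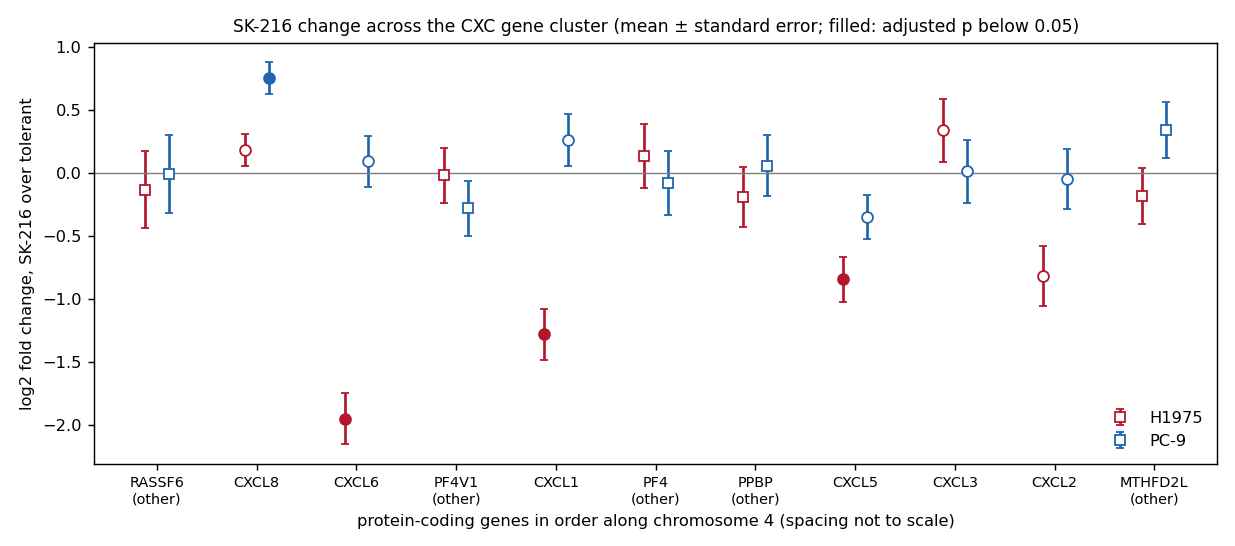
Log2 fold change of SK-216 over tolerant cells (vertical axis, with standard errors) for the protein-coding genes from CXCL8 to CXCL2 and 1 flanking gene on each side, in their order along chromosome 4 (horizontal axis); circles are the chemokines described, squares are other genes, and filled symbols passed. CXCL6, CXCL1 and CXCL5 are filled below 0 in H1975 and CXCL8 is filled above 0 in PC-9.

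Among 31 other chemokines on the array 1 fell in H1975 and 0 passed in PC-9, with medians of 0.02 and -0.03. Over all probe sets 2.35% fell in H1975 and 0.443% passed in PC-9. At an unadjusted p below 0.05 were 1 of the 31 in H1975 and 2 in PC-9, against 14.2% and 10.9% of all probe sets. The 1 that fell was CCL5, or RANTES, a T cell attractant, with a mean of 6.75 ± 0.48 in H1975 SK-216 cells and 7.66 ± 0.18 in H1975 tolerant cells. Its change was -0.91 ± 0.23 (adjusted p = 0.0241), a call that ended in 4 of 12 leave-one-out fits (up to an adjusted p of 0.155). Of the 31, 12 had a mean above 5.14 in at least 1 group. CXCL9 and CXCL11, the nearest relatives of CXCL10, had means below 5.14 in all groups, with changes in H1975 of 0.07 and 0.10, neither past the test.

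**Figure D4:**
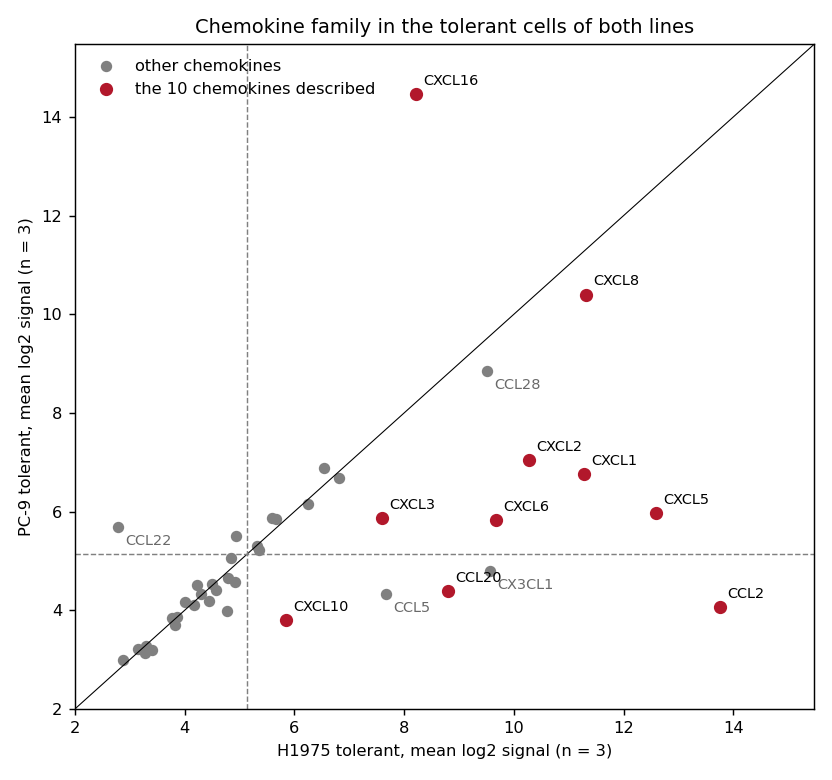
Mean log2 signal of each chemokine in PC-9 tolerant cells (vertical axis) and H1975 tolerant cells (horizontal axis); red points are the 10 described, grey points 31 others, the diagonal is equality and the dashed lines are at 5.14. CCL2 and CXCL5 lie far below the diagonal at 4.06 and 5.98 in PC-9, and CXCL16 far above it at 14.47.

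Of 21 chemokine receptors measured 0 passed with SK-216 in either line by limma, while 0 in H1975 and 3 in PC-9 had an unadjusted p below 0.05, against 14.2% and 10.9% of all probe sets. Of the receptors of the chemokines described, CXCR1, CXCR2, CXCR6 and CCR6 had group means between 3.12 and 4.61, all below 5.14. CXCR3, which binds CXCL10, had group means of 5.47 to 5.79 and CCR2, which binds CCL2, of 5.81 to 6.12, above that mark in all 4 groups. ACKR3, an atypical receptor that binds CXCL11 and CXCL12 without classical signalling, averaged 13.61 in PC-9 tolerant cells and 7.29 in H1975 tolerant cells, with SK-216 changes of -0.14 in PC-9 and 0.12 in H1975.

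In the list of NF-kB subunits and inhibitors 2 of 15 fell in H1975 and 0 rose, with a median of 0.08. Over all probe sets 2.35% fell and 1.44% rose. Without adjustment 3 of the 15 had p below 0.05 in H1975, against 14.2% of all probe sets. NFKBIA, the inhibitor I kappa B alpha and itself an NF-kB target, changed by -0.55 ± 0.09 (adjusted p = 0.000553), and IKBKE, a kinase of the innate immune response, by -0.73 ± 0.15 (adjusted p = 0.00369). The subunits NFKB1 and RELA had changes of 0.17 and 0.06, neither past the test. Among 21 cytokines and receptors of chemokine induction 2 fell and 1 rose in H1975, against the same 2.35% and 1.44% of all probe sets. Of these 21, 8 had an unadjusted p below 0.05 in H1975, against 14.2% of all probe sets. CSF1, a macrophage growth factor, changed by -0.63 ± 0.11 (adjusted p = 0.00054), and IL1B, interleukin 1 beta, by -0.90 ± 0.22 (adjusted p = 0.0158), a call that ended in 3 of 12 leave-one-out fits. IL6, interleukin 6, which NF-kB also activates, rose, at 13.89 ± 0.08 in H1975 SK-216 cells and 13.27 ± 0.06 in H1975 tolerant cells (change 0.62 ± 0.10, adjusted p = 0.000348). In PC-9 neither list held a call, with 3 of 15 and 5 of 21 genes at an unadjusted p below 0.05 against 10.9% of all probe sets, and at 0.28 IL6 did not pass (adjusted p = 0.266).

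The list of interferon-responsive partners of CXCL10 holds CXCL9 and CXCL11 again. It had 6 falls and 0 rises among 12 genes in H1975 (median -0.73), against 2.35% and 1.44% of all probe sets. Without adjustment 8 of the 12 had p below 0.05 in H1975, against 14.2% of all probe sets. The list had no call in PC-9 (2 genes at an unadjusted p below 0.05, against 10.9% of all probe sets). The antiviral genes IFIT1, MX1, IFIT3 and IFIT2 fell in H1975, by log2 values of -2.01, -1.79, -1.75 and -1.57. Of the 12 genes, 8 had a mean above 5.14 in at least 1 group and 7 in PC-9 tolerant cells. IFIT1 averaged 4.46 in PC-9 tolerant and 4.79 in PC-9 SK-216 cells, below that mark, so a fall of it could hardly have been measured there. IRF9, the DNA-binding subunit of the interferon complex, changed by -1.12 ± 0.19 and ISG15, a ubiquitin-like protein, by -0.91 ± 0.24. The call of ISG15 ended in 3 of 12 leave-one-out fits (up to an adjusted p of 0.244). Of 10 genes that shed, trim or hold chemokines 2 fell in H1975 and 1 rose in PC-9, against 2.35% and 0.373% of all probe sets. Without adjustment 6 in H1975 and 3 in PC-9 had p below 0.05, against 14.2% and 10.9% of all probe sets. ADAM10, which releases CXCL16 from the cell surface, changed by -0.35 ± 0.08 in H1975 (adjusted p = 0.0102), and DPP4, a peptidase that trims CXCL10, by -0.96 ± 0.22 (adjusted p = 0.0125). Both calls ended in 2 of 12 leave-one-out fits. CD44, a surface glycoprotein that can carry chemokines on its sugar chains, rose in PC-9 by 0.48 ± 0.10 (adjusted p = 0.0229), a call that ended in 4 of them.

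Over the 12 arrays, the genes most like each called chemokine were sought by Pearson's r among 4886 probe sets with 1 symbol and an SD of at least 0.5. These correlations share the contrast of 2 lines, so many genes score high, 1987 of them over 0.9 for CCL2, and they are given as descriptions. CXCL6 was most like MX1, an antiviral GTPase (r = 0.992), ZNF114 (0.987) and RIGI, the viral RNA sensor (0.986). CXCL1 was nearest to DEPTOR (0.993), IFI44 (0.993) and CALB2 (0.991), and CXCL5 to NREP, DPY19L1 and COL12A1 (0.998, 0.998 and 0.997). CCL2 was nearest to IFI27 (0.999), SERPINA1 (0.999) and BST2 (0.998). CXCL10, with 7 genes over 0.9, was most like DENND2B (0.923), ACP3 (0.919) and SAA1 (0.905). CXCL8, with 17, was most like RPA2 (0.944), TMEM97, a regulator of cholesterol transport (0.934), and SCD, stearoyl-CoA desaturase (0.933).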

How the data were processed

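RNA (250 ng per array) was labelled for a whole-transcript array with 1 colour, per the labels' protocols. The authors deposited 1 log2 signal for each probe set and array. Per the submitters' processing notes the software was Transcriptome Analysis Console, with version and normalization not given in the sources used here. Array medians lay between 6.56 and 6.62, and values were used as deposited. Arrays give no depth, so their number limits precision. Of 21448 probe sets 17709 had 1 symbol, none several, and 3739 were unnamed here. All 17709 Entrez identifiers were found in the RefSeq table of GRCh38.p14.

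A model of 4 group means was fitted to 12 arrays with limma 3.58.1 in R 4.3.3 (eBayes with trend, two-sided tests, Benjamini-Hochberg over all probe sets, calls below 0.05). On simulated data, log2 changes of size 1 were found for 85.0% (SK-216 in H1975) and 86.4% (SK-216 in PC-9) of planted probe sets among 21448. Changes of 0.5 were found for 23.0% and 20.0%, so most changes of that size were missed in the simulation. The simulation left 21248 probe sets unchanged, while 814 passed in H1975 and 95 in PC-9, so the shares found may differ in the data. Where all arrays of a group were at or below the olfactory 95th percentile of 5.14, a fold was bounded by setting them at 5.14. No probe set was filtered out. Members, lists and naming rule (all members, up to 5 called genes per list, 3 genes of likeness) were chosen with earlier results of these data known. A few uncalled receptors, chemokines, regulators and neighbours were named after their values were seen. ISG15 was named beyond the 5 called genes that the rule allows for its list. Windows were aligned with Biopython 1.88. Alternatives covered the variance model, normalization, filter, block, weights, threshold and left-out arrays.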

Additional observations from a re-analysis of the deposited data

Results flagged for a closer look

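For 4 chemokines the SK-216 change differed between the lines by the test of the interaction, given as the change in PC-9 minus that in H1975. The difference was 1.54 for CXCL1, 2.04 for CXCL6, 1.97 for CXCL10 and 0.97 for CCL2 on the log2 scale. CXCL1 had a PC-9 tolerant mean of 6.76, above 5.14, the 95th percentile of olfactory receptor probe sets. CXCL6, at 5.83, lay close above that mark, so a large fall of it could hardly have been measured in PC-9. CXCL10 and CCL2 had PC-9 tolerant means of 3.79 and 4.06, below the mark, so the sizes of their differences are not exact. The part of these low levels in the differences was not tested.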

How the results depend on the processing

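The members called numbered 5 to 6 for SK-216 in H1975, 0 to 1 for SK-216 in PC-9, 3 to 4 for the difference, 10 for tolerant cells of both lines and 8 to 9 for SK-216 cells of both lines when 1 array was left out. Without a variance trend they were 0 in PC-9 and 2 for the difference. Without that trend 448, 18 and 99 of all probe sets passed for H1975, PC-9 and the difference, against 814, 95 and 304, and at an adjusted p below 0.01 there were 422, 33 and 136. With 1 array left out the count over all probe sets ran from 545 to 918 in H1975 and from 30 to 104 in PC-9, the lowest without PC-9 SK-216 array 2. CXCL2 in H1975 passed with each line fitted alone (adjusted p = 0.0284), without the dimmest 30% of probe sets (0.0347) and with array weights (0.0447). That filter removed CXCL10, which then has no value.

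With a replicate block (arrays of a line sharing a number) 6 members passed in H1975, CXCL2 being added (adjusted p = 0.027), 1 passed in PC-9, where 58 of all probe sets passed, and 3 for the difference, CCL2 being lost (adjusted p = 0.0866). Deviations of same-numbered arrays from their group means had r of -0.091 to 0.029, and those of other-numbered arrays r of -0.037 to 0.094. No shared shift was seen, but such values cannot exclude that the numbers pair the arrays.

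The sign turned only in uncalled values near 0. In PC-9 CXCL2 was at 0.022 with array weights, and CXCL16 at -0.029 and CCL2 at 0.013 with quantile normalization. With 1 array left out, PC-9 changes ran from -0.23 to 0.17 for CXCL2, -0.24 to 0.26 for CXCL3, -0.030 to 0.065 for CXCL16 and -0.17 to 0.14 for CCL2. The difference for CCL20 ran from -0.34 to 0.15, and CXCL10 in SK-216 cells of both lines from -0.25 to 0.038. The causes were not tested.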
